A study of Homo sapiens with 6 samples.

Results

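The libraries labelled as clone sh-S2 of SKOV3, a human ovarian adenocarcinoma line, were compared with those labelled as clone sh-S1 of the same line. Both clones were made with lentiviral pLKO.1-puro vectors carrying an shRNA against Hic-5 (gene TGFB1I1), and both were selected with puromycin. The comparison used 4 of the 6 samples of the series, 2 Agilent 2-colour arrays per clone. On each array the RNA of the clone was hybridized together with RNA of the Ctrl, a SKOV3 clone transduced with a scramble vector, and the dyes were exchanged between the arrays of a clone. The log2 ratio of clone over Ctrl was taken on each array, and the ratio of sh-S1 was subtracted from that of sh-S2, first between the arrays that had the clone in Cy5 and then between those that had it in Cy3. The shared Ctrl cancels in this difference. Each clone is 1 RNA on 2 arrays, so the SD over the orientations is technical, no p-value can be given for a difference between the clones, and the effect of an shRNA and the individuality of a clone cannot be told apart.

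Hic-5 is an adaptor protein of focal adhesions that also acts as a nuclear receptor coactivator and is induced by TGF-beta. The markers of this comparison, TRIB3 and DDIT3, belong to the integrated stress response. In that response, kinases that sense unfolded protein, lack of amino acids, lack of heme or double-stranded RNA phosphorylate the translation factor eIF2. Bulk translation then slows, while the mRNA of the transcription factor ATF4 is translated more, and ATF4 with its C/EBP partners switches on genes of amino acid supply, protein folding and cell death.

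The target sequences of the shRNAs are shown because they define the intended knockdown. The labels do not say which of them clone sh-S1 or clone sh-S2 carries, nor whether the clones carry different ones. Both are given 5′ to 3′ in the sense of the mRNA and have 21 bases.
first target: cagttcaacatcacagatgaa
second target: cggttgcttcaggaacttaat

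A pair of checks of the labels came first. TGFB1I1, the targeted gene, had log2 ratios to Ctrl of -0.16 and 0.12 on the arrays of sh-S1 and of -0.12 and 0.28 on those of sh-S2, with the clone in Cy5 given before the clone in Cy3 here and below. Neither library labelled as a knockdown was lower than Ctrl on both of its arrays, and the clones differed by 0.10 ± 0.08 (mean log2 difference ± SD over the orientations, 2 orientations). The sign of this small difference turned with the processing, to -0.39 with the scanner software's processed signals, -0.28 with the clone channels set against each other without the Ctrl and -0.03 with median centring. The position of the probe relative to the shRNA targets was not determined, and the array does not measure the protein.

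The second check concerned markers of the cell line. PAX8, a transcription factor of Müllerian epithelium, lay at -3.52 and -3.74 in sh-S1 and at -3.40 and -3.65 in sh-S2, as log2 ratio to Ctrl. KRT18, a keratin of simple epithelia, lay at -3.44 and -3.75 in sh-S1 and at -3.89 and -3.01 in sh-S2. ERBB2, a receptor tyrosine kinase for whose high expression SKOV3 is known, lay at -1.88 and -2.44 in sh-S1 and at -2.23 and -2.59 in sh-S2. All of these were well above background in both clones, and all were far below the Ctrl in both. SOX17, KRT7, KRT8 and KRT19 were also below it on all 4 arrays, with ratios from -1.34 to -3.55. The other members, WT1, MUC16, MSLN, EPCAM, CDH1, CLDN3, CLDN4, CLDN7, MUC1, ESRP1 and GRHL2, had ratios from -0.45 to 0.31, near the Ctrl. Of these only CLDN3 was well above background in the clones on all 4 arrays. The summed level of the 18 ovarian epithelial markers with a probe was 6335 to 8244 in sh-S1, 5612 to 8027 in sh-S2 and 32339 to 44721 in the Ctrl channels, on the scale of normalized intensity. The summed level of the 9 fibroblast markers with a probe was 7325 and 9518 in sh-S1, 4911 and 6857 in sh-S2, and 1458 to 2071 in the Ctrl. COL3A1, a fibrillar collagen, had ratios of 3.75 and 4.02 in sh-S1 and of 3.30 and 3.52 in sh-S2, and THY1 and POSTN were also above the Ctrl on all 4 arrays by ratios of 0.53 to 1.96. COL1A2, DCN, LUM, FAP and PDGFRB had ratios from -0.20 to 0.30, near the Ctrl. The libraries labelled as SKOV3 clones thus shared a large distance from the library labelled as their Ctrl, and the part of this distance in any result below was not tested. The identity of the clones and of the Ctrl was not tested either. For leukocyte markers the sums were 1852 to 2003 in sh-S1 and 1973 to 2092 in sh-S2, and for endothelial markers they were 1057 to 1172 and 970 to 1166. PTPRC, the pan-leukocyte marker, and PECAM1, an endothelial adhesion molecule, were not well above background in either clone with the clone in Cy5. Of 12, 6, 4 and 3 measured members of the ovarian epithelial, fibroblast, leukocyte and endothelial lists, none was called as different between the clones. Over all measured genes 0.308% were called higher and 0.177% lower, so no call is the usual outcome for lists this small.

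A probe was measured when it was well above background, as flagged by the scanner software, on both arrays of at least one clone, and each gene was read by its brightest probe. A gene was called when sh-S2 and sh-S1 differed by at least 2-fold on average with at least 1.5-fold the same way in each orientation. Of 12992 measured genes, 40 were higher in sh-S2 (0.308%) and 23 were lower (0.177%). With the ratios centred on the median in place of loess, the split was 68 higher and 8 lower. Among 23127 measured probes, 50 were higher (0.216%) and 41 lower (0.177%). The same rule applied to the Ctrl channels, where the same RNA stands on both sides, called 6 of the 12992 genes higher on the sh-S2 arrays (0.0462%) and 2 lower (0.0154%). The Ctrl channels were compared as separate levels, and the clones as ratios to the Ctrl. As separate levels, the clone channels gave 56 genes higher and 40 lower. In this processing the clones were close over most genes: the mean difference stayed under 1.5-fold for 96.1% of them, with a median of -0.004 and a middle range from -0.16 to 0.14 between the quartiles. The background correction added an offset of 50 to each intensity, which draws the ratios of dim probes toward 0. With an offset of 10 the rule called 93 genes higher and 51 lower. As a description across the 12992 genes, which are not independent replicates, the differences in the 2 orientations correlated with a Pearson r of 0.391 between the clones and of 0.003 between the Ctrl channels. The first r is over ratios to the Ctrl and the second over separate levels, so they are not like for like.

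**Figure D1:**
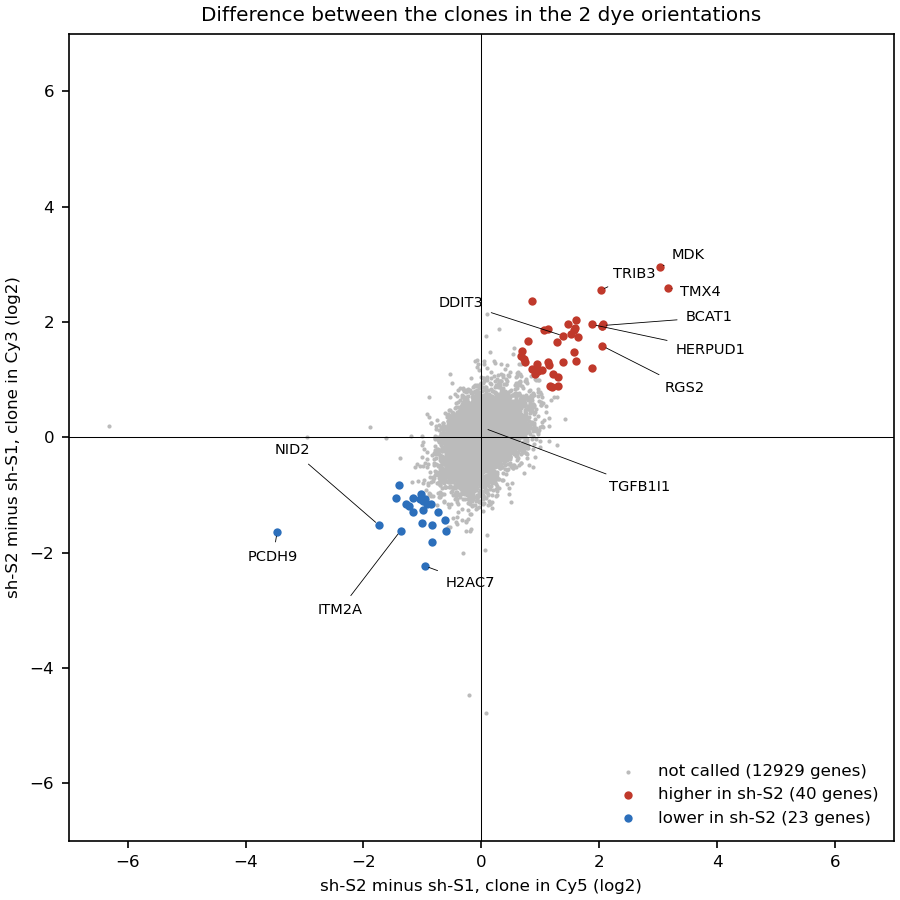
Each point is 1 of 12992 measured genes, with the log2 difference sh-S2 minus sh-S1 measured with the clone in Cy5 (horizontal) and in Cy3 (vertical). The 40 genes called higher in sh-S2 are red and the 23 called lower are blue. MDK and TMX4 lie farthest up along both axes, PCDH9 lies farthest left among the called genes, and single points on an axis, such as one near -6.32 in Cy5, differ in 1 orientation alone.

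The stress response genes given as markers were higher in sh-S2. TRIB3, a pseudokinase that is induced by ATF4 and DDIT3, had ratios to Ctrl of -1.59 and -2.23 in sh-S1 and of 0.43 and 0.32 in sh-S2. It was thus below the Ctrl in sh-S1 and slightly above it in sh-S2, and the clones differed by 2.29 ± 0.37, or 4.88-fold. DDIT3, which encodes the proapoptotic transcription factor CHOP, had ratios of -0.20 and 0.01 in sh-S1 and of 1.20 and 1.77 in sh-S2. Here sh-S1 was at the level of the Ctrl and sh-S2 above it, with a difference of 1.58 ± 0.26, or 2.98-fold, and in sh-S1 the probe was well above background on 1 of 2 arrays. The size of both differences moved with the background correction, to 3.23 for TRIB3 and 3.28 for DDIT3 with the processed signals and to 2.66 and 2.35 with a smaller normexp offset. With median centring the DDIT3 difference was 1.73 ± 1.79, too uneven over the orientations for a call. DDIT3 was not measured when every channel was asked to be well above background. The Ctrl channels of the same arrays differed by 0.05 and 0.22 for TRIB3 and by 0.03 and 0.45 for DDIT3. The TRIB3 probe lies at 378107 to 378166 of chromosome 20 and the DDIT3 probe between 57911200 and 57911526 of chromosome 12, both on hg19 as in the files. A further TRIB3 probe, too dim to be measured, read -0.16.

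Of 24 genes listed as regulators and effectors of the integrated stress response, 21 were measured, 4 were called higher in sh-S2 and 0 lower. The called members include the given markers TRIB3 and DDIT3, so the count and the median below add no independent support. With every channel asked to be well above background, 3 were called higher. The list had a median difference of 0.42, against -0.004 over all genes. In both orientations 13 members were above 0 and 2 were below, beside 28.7% and 31.1% of all measured genes. The called members besides TRIB3 and DDIT3 were CEBPB, a bZIP transcription factor, and DDIT4, an inhibitor of mTORC1 induced by stress. CEBPB had ratios of -1.60 and -1.77 in sh-S1 and of -0.66 and -0.50 in sh-S2, so that both clones were below the Ctrl and sh-S2 less so. Its difference was 1.11 ± 0.24, and its other measured probe read 0.02. DDIT4 had ratios of 0.74 and 0.33 in sh-S1 and of 1.77 and 1.50 in sh-S2, a difference of 1.10 ± 0.10.

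**Figure D2:**
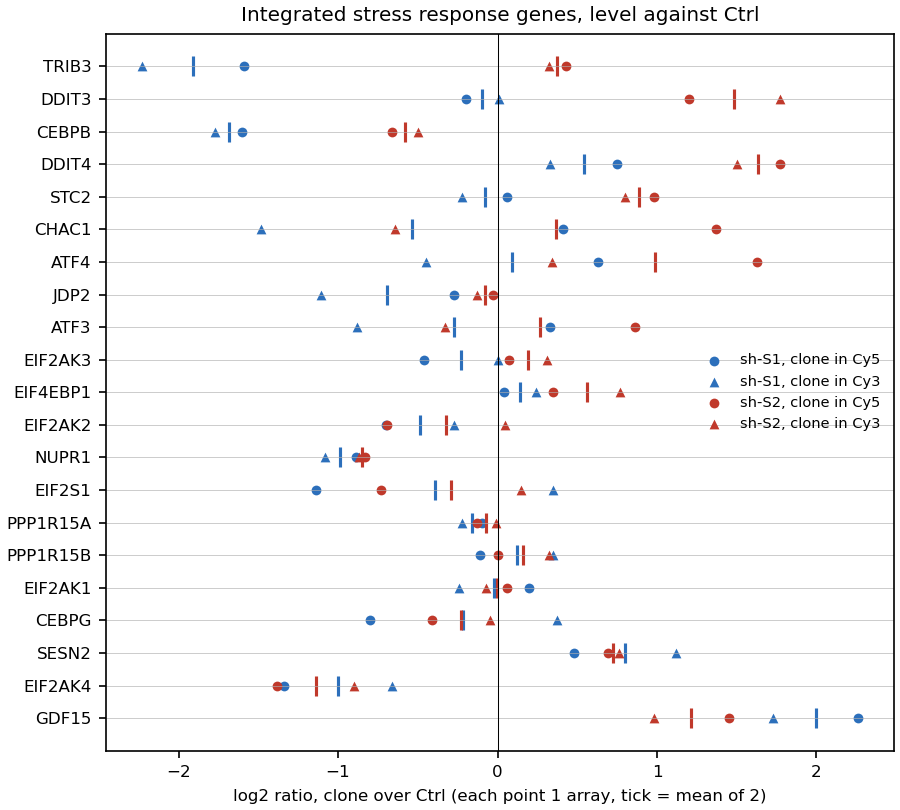
The log2 ratio of clone over Ctrl is plotted for the 21 measured genes of the integrated stress response, with sh-S1 in blue, sh-S2 in red, circles for the clone in Cy5, triangles for the clone in Cy3, and a tick at the mean of the 2 arrays. For TRIB3, DDIT3, CEBPB and DDIT4 every sh-S2 point lies to the right of both sh-S1 points, and GDF15 at the bottom is ordered the other way.

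Just under the threshold stood STC2, a secreted glycoprotein, at 0.92 and 1.01 in the 2 orientations, ATF4 itself at 1.00 and 0.79, and CHAC1, a glutathione-degrading enzyme, at 0.95 and 0.84. The other ATF4 probe read 0.35, and the Ctrl channels differed by 0.18 and 1.10 for STC2. In sh-S1 the STC2 probe was well above background on 1 of 2 arrays. The ratios of ATF4 and CHAC1 depended on the dye more than on the clone: ATF4 was at 0.63 and -0.45 in sh-S1 and at 1.63 and 0.34 in sh-S2, and CHAC1 at 0.41 and -1.48 against 1.36 and -0.64. ATF3, another bZIP factor, differed by 0.54 ± 0.02 and JDP2, which pairs with bZIP factors, by 0.61 ± 0.53. The eIF2 kinases were spread from -0.14 for EIF2AK4, the sensor of uncharged tRNA, over 0.02 for EIF2AK1 and 0.17 for EIF2AK2 to 0.42 for EIF2AK3, the sensor in the endoplasmic reticulum (ER). The phosphatase subunits PPP1R15A and PPP1R15B, which reverse the phosphorylation of eIF2, read 0.10 and 0.04. CEBPG, NUPR1, SESN2 and EIF2S1 lay between -0.08 and 0.14, and EIF4EBP1, a brake on cap-dependent translation, read 0.42 ± 0.15. GDF15, a secreted stress cytokine, ran against the list, with ratios of 2.26 and 1.73 in sh-S1 and of 1.45 and 0.98 in sh-S2 and a difference of -0.78 ± 0.04.

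Genes of amino acid synthesis and transport had 28 measured members, of which 1 was called higher and 0 lower, with a median of 0.27. Above 0 in both orientations were 18 members, and 3 were below, beside 28.7% and 31.1% of all measured genes. BCAT1, the cytosolic aminotransferase of branched-chain amino acids, had ratios of 0.16 and 0.76 in sh-S1 and of 2.21 and 2.70 in sh-S2. Its difference of 1.99 ± 0.08 was one of the largest measured, while its other measured probe read 0.52. MTHFD2 of mitochondrial folate metabolism stayed just below the threshold at 0.98 and 1.00. ASNS, asparagine synthetase and a classical ATF4 target, read 0.52 ± 0.08. Of 20 measured aminoacyl-tRNA synthetases none was called, and the median was 0.19.

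Among ER chaperones and genes of the unfolded protein response 27 were measured, 1 was called higher and 0 lower, and the median was 0.10. The called gene was HERPUD1, a membrane protein of ER-associated degradation. Its ratios were -1.12 and -1.72 in sh-S1 and 0.76 and 0.23 in sh-S2, on opposite sides of the Ctrl, and the clones differed by 1.92 ± 0.06, or 3.78-fold. The Ctrl channels differed by 0.02 and -1.11 for this probe, and a lower Ctrl on the sh-S2 array raises the difference of the ratios. As separate levels the clone channels differed by 1.90 and 0.85, a mean of 1.37 ± 0.74. HSPA5, the main ER chaperone, read 0.19 ± 0.18 and HSP90B1 0.25 ± 0.12.

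ATF4 with a C/EBP partner reads the motif TGATGNAA, which was searched on both strands in the RefSeq promoters of GRCh38.p14, each with 250 bases before and 50 after a start. It occurs in 3.62% of all 35116 promoters. Counted by gene, with any promoter of the gene, 307 of 10351 measured genes held it (2.97%), and the counts below are by gene. Of the 40 genes called higher 33 had a promoter in the table and 2 of them held the motif, BCAT1 and HERPUD1, and of the 23 called lower 19 had a promoter and 0 held it. Among the measured genes with a promoter, 5 of 18 stress response genes and 9 of 21 amino acid genes held it, CHAC1 and ASNS among them. No match was found in these windows for TRIB3, DDIT3, CEBPB or DDIT4, which says only that the letters are not there. The bases before the start of HERPUD1, CHAC1 and ASNS, with the motif in capitals, show how differently it is placed: 176 bases before the start in HERPUD1 and 209 in CHAC1 as its reverse complement, and 68 in ASNS on the strand of the gene. They lie on chr16:56931892-56932141 (plus strand), chr15:40953221-40953470 (plus strand) and chr7:97872409-97872658 (minus strand), and a stretch of 30 bases is given for BCAT1, where the motif begins 48 bases before one of several starts on chromosome 12 (minus strand).
HERPUD1: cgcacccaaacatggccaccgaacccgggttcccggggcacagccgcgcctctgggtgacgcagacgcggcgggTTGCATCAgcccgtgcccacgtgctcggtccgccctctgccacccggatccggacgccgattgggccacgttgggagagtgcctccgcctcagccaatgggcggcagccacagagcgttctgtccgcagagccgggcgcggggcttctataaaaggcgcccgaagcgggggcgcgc
CHAC1: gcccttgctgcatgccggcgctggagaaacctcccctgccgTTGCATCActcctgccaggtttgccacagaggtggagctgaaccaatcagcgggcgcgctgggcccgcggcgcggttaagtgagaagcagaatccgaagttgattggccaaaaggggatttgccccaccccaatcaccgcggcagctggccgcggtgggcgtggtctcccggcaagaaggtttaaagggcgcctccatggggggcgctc
ASNS: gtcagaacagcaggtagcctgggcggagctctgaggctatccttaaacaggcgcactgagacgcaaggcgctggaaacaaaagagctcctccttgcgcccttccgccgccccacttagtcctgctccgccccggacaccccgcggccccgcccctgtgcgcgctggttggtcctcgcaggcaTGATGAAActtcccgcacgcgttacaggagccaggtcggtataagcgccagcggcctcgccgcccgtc
BCAT1: tgtcttcctgcTGATGCAAtccgctaggtc

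Outside the lists, the largest differences were in genes of varied function. MDK, which encodes the heparin-binding growth factor midkine, had ratios of -0.06 and -0.02 in sh-S1 and of 2.97 and 2.93 in sh-S2. It stood at the level of the Ctrl in sh-S1 and far above it in sh-S2, and the difference was 2.99 ± 0.05, or 7.93-fold, with sh-S1 well above background on 1 of 2 arrays. TMX4, a thioredoxin-related protein of the ER membrane, had ratios of -0.40 and 0.09 in sh-S1 and of 2.76 and 2.68 in sh-S2. Its difference was 2.88 ± 0.41, and its other 2 measured probes read 3.22 and 3.66. TMX4 was also one of the 6 genes called between the Ctrl channels, with differences of 1.35 and 1.43, less than those between the clones but in the same direction.

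CTSK, the lysosomal protease cathepsin K, had ratios of -0.20 and 0.11 in sh-S1 and of 1.85 and 2.08 in sh-S2. RGS2, which shortens signalling by G proteins, was above the Ctrl in both clones, at 1.18 and 1.66 in sh-S1 and at 3.23 and 3.25 in sh-S2. In both genes the arrays of the clones did not overlap, which the call rule makes likely and which adds no support.

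The other genes described among the 15 highest lay between 1.61 and 1.82. ARHGAP4 differed by 1.69 ± 0.07, and CERS6, a ceramide synthase, by 1.66 ± 0.19, with 0.34 for its other measured probe. PNPLA4, a lipase of the patatin family, had ratios of -1.03 and -0.98 in sh-S1 and of 0.45 and 0.99 in sh-S2. KRT222 differed by 1.72 ± 0.20. TBX1, a T-box transcription factor, was below the Ctrl in both clones and differed by 0.85 and 2.37 in the 2 orientations. The probes of KRT222 and TBX1 were well above background on 1 of 2 arrays of sh-S1, so they were measured through sh-S2 alone. BEX4 was not well above background on either array of sh-S1 and well above it on both of sh-S2. Its difference of 1.82 ± 0.30 therefore has no measured level on the side of sh-S1, and its Ctrl channels differed by -0.06 and 1.52.

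Among the genes lower in sh-S2, PCDH9, a protocadherin of cell adhesion, had ratios of 5.45 and 3.56 in sh-S1 and of 1.99 and 1.92 in sh-S2. It was above the Ctrl in both clones and highest in sh-S1, and the difference of -2.55 ± 1.29 had the widest error of the called genes named here. NID2, the basement membrane protein nidogen-2, had ratios of 1.34 and 1.30 in sh-S1 and of -0.40 and -0.22 in sh-S2, and differed by -1.63 ± 0.15. ITM2A, a transmembrane protein, had 1.65 and 2.06 in sh-S1 against 0.28 and 0.44 in sh-S2. These genes were raised over the Ctrl in sh-S1 and near or nearer to it in sh-S2.

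In several other called genes sh-S2 was below the Ctrl on both arrays. DPYD, the first enzyme of pyrimidine breakdown, had ratios of 0.11 and 0.17 in sh-S1 and of -1.06 and -1.13 in sh-S2. GLI3, a transcription factor of Hedgehog signalling, had 0.47 and 0.99 in sh-S1 and -0.53 and -0.49 in sh-S2. SULF2, an extracellular sulfatase of heparan sulfate, was below the Ctrl in both clones, at -1.62 and -0.71 in sh-S1 and at -2.46 and -2.52 in sh-S2. C1S, a complement protease, was above the Ctrl in sh-S1, at 1.06 and 1.59, and near it in sh-S2, at -0.16 and 0.40. CAVIN1, a coat protein of caveolae, differed by -1.11 ± 0.40 and RNF145, a ubiquitin ligase, by -1.11 ± 0.72. As separate levels the RNF145 clone channels differed by -0.60 and -0.47 and its Ctrl channels by 0.00 and 1.15. With the clone in Cy3 its ratio difference thus rests largely on the Ctrl channel. For 4 further genes the call rested on the brightest probe. The other measured probes read -0.59 and -0.29 for TCF25, -0.30 and 0.05 for AHNAK, -0.71 to 0.08 for TPM1, a tropomyosin, and -0.38 for CHPF2, against calls of -1.22, -1.18, -1.12 and -1.11.

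**Figure D3:**
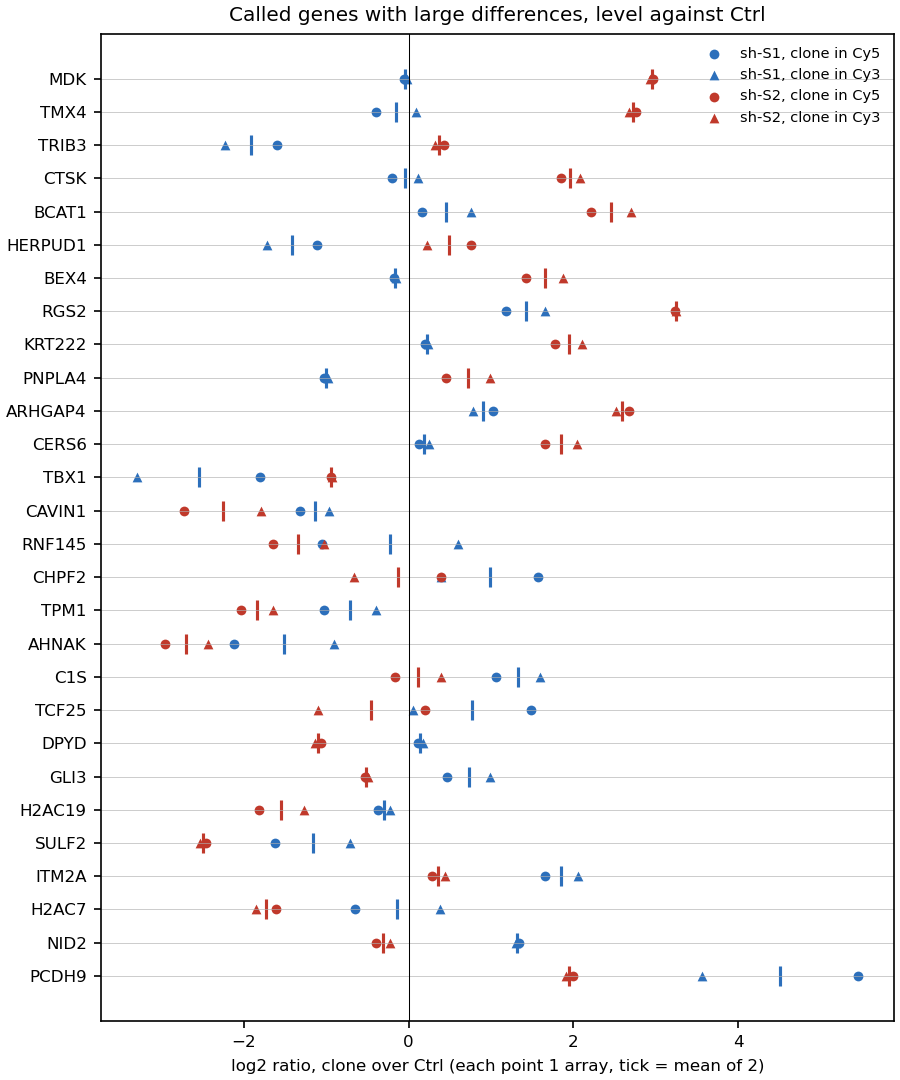
The log2 ratio of clone over Ctrl is shown per array for the called genes described among the 15 with the highest mean difference and for the 15 with the lowest, with sh-S1 in blue, sh-S2 in red, circles for the clone in Cy5, triangles for the clone in Cy3, and ticks at the means. MDK, TMX4 and CTSK are near 0 in sh-S1 and above it in sh-S2, while NID2 and GLI3 are above 0 in sh-S1 and below it in sh-S2.

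The other 18 genes called higher differed by 1.00 to 1.53 and the other 7 called lower by no more than -1.06. The following among them were picked after their values were seen. The axon guidance molecules SEMA6A and SLIT2 had ratios to Ctrl of 0.02 and 0.38 and of -0.31 and -0.16 in sh-S1, and of 1.59 and 1.87 and of 0.75 and 1.71 in sh-S2. RGS16 and RGS10, which belong to the family of RGS2, differed by 1.20 ± 0.07 and 1.04 ± 0.24. SLC16A3, an exporter of lactate, was far below the Ctrl in both clones, at -2.42 and -4.56 in sh-S1 and at -1.62 and -2.89 in sh-S2. NR1H3, a nuclear receptor for oxysterols, had -0.44 and -0.66 in sh-S1 and 0.52 and 0.49 in sh-S2.

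Seen against the Ctrl, the 40 genes higher in sh-S2 were of several kinds. In 21 the mean ratio passed 1.5-fold in sh-S2 alone, in 8 in sh-S1 alone, in 9 in both clones on the same side, in 1 on opposite sides, and in 1 in neither. Of the 23 lower genes, 6 passed it in sh-S2 alone, 8 in sh-S1 alone and 9 in both on the same side. No called gene was at least 1.5-fold above the Ctrl on both arrays of one clone and at least 1.5-fold below it on both arrays of the other.

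Genes of glycolysis and the response to hypoxia had the highest median of the lists. Of 24 measured, 2 were called higher in sh-S2 and 0 lower, and the median was 0.47. In both orientations 18 were above 0 and 2 below 0, beside 28.7% and 31.1% of all measured genes, of which 0.308% were called higher. BNIP3, a mitophagy receptor induced by hypoxia, had ratios of 0.15 and 0.66 in sh-S1 and of 2.03 and 1.86 in sh-S2, a difference of 1.54 ± 0.48. PDK1, the kinase that closes the entry of pyruvate into mitochondria, had 0.33 and 0.37 in sh-S1 and 1.01 and 1.86 in sh-S2, and its other measured probe read 0.37. The glycolytic enzymes PGAM1, PGK1 and LDHA stood at 0.88, 0.82 and 0.80 and the glucose transporter SLC2A1 at 0.80, all without a call. The hypoxia targets VEGFA, CA9 and NDRG1 read 0.02, 0.05 and -0.08, and ADM read -0.34. Over 26 measured genes of oxidative phosphorylation encoded in the nucleus none was called and the median was 0.07.

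Genes of mitosis had 24 measured members with a median of 0.29, 18 above 0 and 1 below 0 in both orientations, and none called. Over all measured genes 28.7% were above 0 and 31.1% below 0 in both orientations. FOXM1, a transcription factor of mitotic genes, read 0.49 ± 0.14 and BIRC5, or survivin, 0.52 ± 0.12. Genes of DNA replication had a median of 0.07 over 22 measured. Genes listed as p53 targets ran the other way: all 20 were measured, 1 was called lower and 0 higher, and the median was -0.35. In both orientations 16 were below 0 and 1 above, beside 31.1% and 28.7% of all measured genes. The activity of p53 itself was not measured. TP53INP1, a stress-induced nuclear protein, had ratios of 1.42 and 0.77 in sh-S1 and of 0.43 and -0.34 in sh-S2, a difference of -1.05 ± 0.09. CDKN1A, the inhibitor of cyclin-dependent kinases p21, read -0.50 ± 0.14 and MDM2, the ubiquitin ligase of p53, -0.23 ± 0.17. SESN2 belongs to this list and to that of the stress response.

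Other lists gave single calls or none. FTL, the light chain of ferritin, was the called member among 20 measured antioxidant genes, with ratios of -2.15 and -2.23 in sh-S1 and of -1.02 and -0.91 in sh-S2, and its other probes read 0.61 and 0.80. BST2, or tetherin, was the called member among 32 interferon-stimulated genes, whose median was 0.01, and differed by 1.14 and 1.87. The median was -0.23 over 14 mesenchymal genes, -0.18 over 25 extracellular matrix genes and -0.18 over 14 heat shock genes, without a call. The signs of the extracellular matrix and heat shock medians turned with median centring, to 0.009 and 0.039. The 22 genes of the TGF-beta pathway had a median of -0.06 and the 25 ribosomal protein genes -0.03. There was no call either among 12 MHC class I genes, 15 inflammatory NF-kappaB targets, 12 regulators of G1, 24 genes of cholesterol and fatty acid synthesis, 24 of lysosomes and autophagy, 17 immediate early genes, 11 metallothioneins and 20 HOX genes. With 0.308% of all measured genes called higher and 0.177% lower, no call is the usual outcome for a list of such size, here and above.

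**Figure D4:**
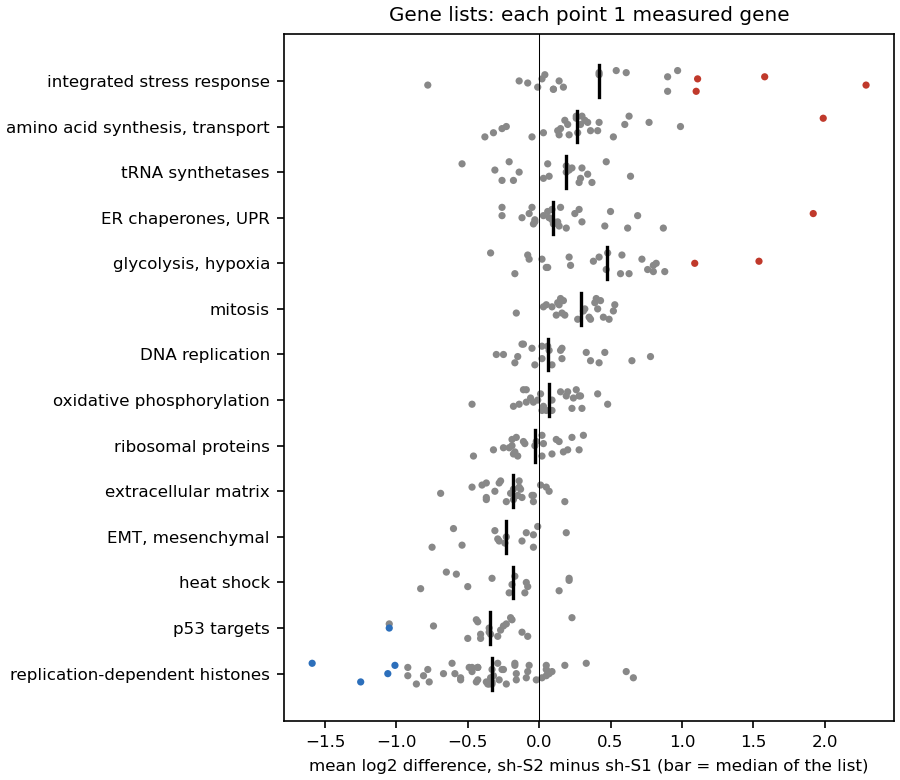
Each point is the mean log2 difference sh-S2 minus sh-S1 of 1 measured gene of a list, with genes called higher in red and called lower in blue, and the black bar is the median of the list. The bars run from 0.47 for glycolysis and hypoxia and 0.42 for the stress response down to -0.35 for p53 targets and -0.33 for replication-dependent histones.

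Histone genes and mitochondrially encoded transcripts were grouped after their values were seen, so their counts are a description of what was noticed. Replication-dependent histones are packed into new chromatin in S phase, and their mRNAs end in a stem-loop and mostly lack a poly(A) tail. Of 64 such genes with a probe, 54 were measured, 4 were called lower in sh-S2 and 0 higher, and the median was -0.33. In both orientations 39 were below 0 and 5 above 0, beside 31.1% and 28.7% of all measured genes, of which 0.177% were called lower. H2B genes had a median of -0.51 over 16 genes and H2A genes of -0.36 over 13, while H3 genes had -0.16 over 12 and H4 genes -0.20 over 10. H2AC7 had ratios of -0.65 and 0.38 in sh-S1 and of -1.61 and -1.85 in sh-S2, and H2AC19 of -0.37 and -0.22 against -1.82 and -1.27. H2BC6 and H2BC7 differed by -1.01 ± 0.02 and -1.06 ± 0.02. The histone genes are near-identical copies, so the signal of one probe cannot be assigned to one gene with certainty.

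The mitochondrial genome encodes subunits of the respiratory chain. All 15 measured probes placed on it by the files were below 0 in both orientations, from -0.15 to -1.41 with a median of -0.50, and 2 were called lower. For comparison, 0.177% of all measured probes were called lower, and 31.1% of all measured genes were below 0 in both orientations. The called probe of COX2, the mitochondrial subunit of cytochrome c oxidase, had ratios of 0.02 and 0.52 in sh-S1 and of -1.13 and -0.56 in sh-S2. The called probe of CYTB had 0.68 and 0.68 in sh-S1 and -0.86 and -0.59 in sh-S2, and a second CYTB probe differed by -0.91 ± 0.03.

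**Figure D5:**
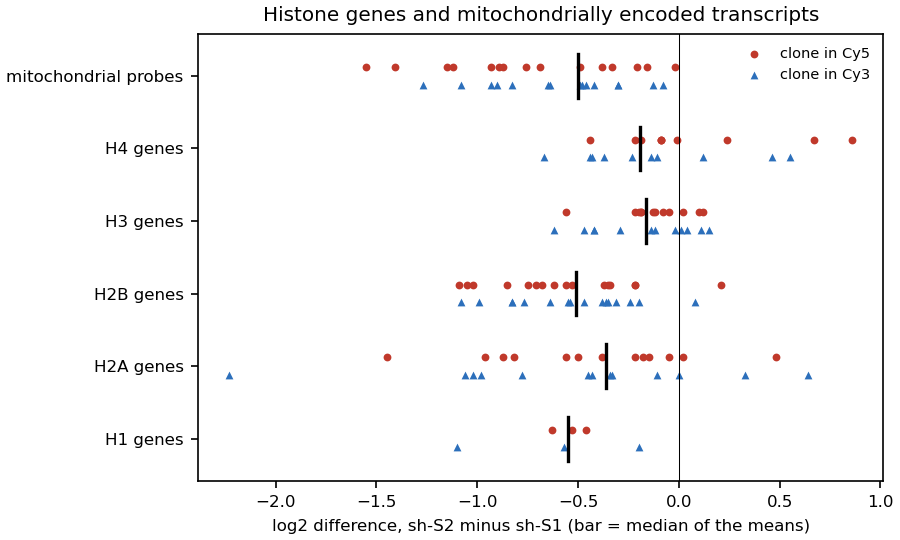
The log2 difference sh-S2 minus sh-S1 is plotted for each measured replication-dependent histone gene by class and for each measured mitochondrially encoded probe, with red circles for the clone in Cy5, blue triangles for the clone in Cy3, and a bar at the median of the means. All mitochondrial points lie below 0, and H2B points do so with few exceptions, whereas H3 and H4 points lie on both sides.

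By position, no chromosome stood apart. The median difference of the measured genes lay between -0.03 and 0.03 on all 23 chromosomes, 1 to 22 and X. Over 12421 windows of 25 neighbouring measured genes the median ranged from -0.37 to 0.23. The lowest windows covered the histone cluster on chromosome 6, from 26031909 to 26273434 on hg19 for the lowest, and outside chromosome 6 no window was below -0.22.

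Near the threshold, the genes called higher with the least difference were TMEM216 (0.92 and 1.09), NLRX1 (0.74 and 1.31) and LDHC (0.86 and 1.19), and those called lower were TRMT1 (-0.85 and -1.16), H2BC6 (-1.02 and -0.99) and TCF21 (-0.73 and -1.29). Just outside, STX8 (0.09 and 2.13), LGALS3 (0.31 and 1.88) and PREX1 (0.56 and 1.54) passed the mean but not the smaller orientation. TCF21 was not well above background on either array of sh-S2, and its Ctrl channels differed in the same direction as the clones, by -0.95 and -1.76.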

How the data were processed

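RNA labelled as that of 3 SKOV3 clones was measured on 4 arrays of 45015 spots, 1639 of them controls, with 41000 probes. The authors deposited spot intensity as the scanner software wrote it, without normalization, and log10 ratios (Cy5 over Cy3) based on processed intensities, which were used as an alternative and match the scanner's log ratios. The labels name Feature Extraction 8.5.1.1 and the file headers 10.7.3.1. Mean intensities were corrected with normexp (offset 50; parameters fitted without spots flagged for background) and normalized by loess within each array in limma 3.58.1 under R 4.3.3, control and outlier spots were left out (263 to 316 outliers per array), spots of a probe were averaged, and ratios were turned to clone over Ctrl using the dyes in the labels. Tables and figures were made with Python 3.11.15, pandas 2.3.3, numpy 2.4.6 and matplotlib. Ctrl channels were compared as separate levels after Aquantile.

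The median signal above background was 373 to 530.5 in Cy3 and 9.52 to 25.5 in Cy5, with 88.8 to 94.5% and 43.7 to 63.6% of spots well above background, no spot was saturated, and replicate spots of 264 probes had an SD of 0.136 to 0.308 (log2). Precision is limited by the weak Cy5 signal and by having 2 arrays per clone. Of 41000 probes, 28236 were named through RefSeq accessions, and 99.9% of named probes with a position were on the chromosome RefSeq gives. The rest stayed unnamed.

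The text names TGFB1I1, TRIB3 and DDIT3, the 15 called genes with the highest and the 15 with the lowest mean difference, up to 4 called members per gene list, and all measured stress response regulators. Some items that meet these rules are not reported here. Other genes are named as examples from their list or after their values were seen. The members of this comparison and the 29 gene lists were chosen with earlier results of these data known. The call rule was tested on simulated data. Alternatives changed the background correction, the normalization, the filter, the choice of probe, the call rule and the orientations used, as given at the end. No column of these arrays lacked a sample.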

Additional observations from a re-analysis of the deposited data

Results flagged for a closer look

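For 11 of the 63 called genes both arrays of one clone lay on one side of the Ctrl and both arrays of the other clone on the opposite side. This goes by sign alone, without a least distance from the Ctrl. Its share over all measured genes is not given, so whether 11 is many cannot be said. The 2 called genes that were not well above background on either array of a clone, BEX4 and TCF21, were left out of this count, since no side of the Ctrl can be read for them there. MDK (difference sh-S2 minus sh-S1 of 2.99), TRIB3 (2.29), HERPUD1 (1.92), PNPLA4 (1.72), ATP11B (1.47), SLIT2 (1.46), NR1H3 (1.05) and LDHC (1.02) were below the Ctrl in sh-S1 and above it in sh-S2. NID2 (-1.63), GLI3 (-1.24) and DPYD (-1.23) were above the Ctrl in sh-S1 and below it in sh-S2. These differences were not tested, since each clone is 1 RNA. For MDK and DPYD the ratios of sh-S1 were within 0.2 of 0.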

How the results depend on the processing

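No named gene called in the comparison turned its direction under any alternative in which it was measured, and none of the 63 calls had the opposite sign under an alternative. Of the 63 calls, 22 were kept in all 9 alternatives of processing, TRIB3, HERPUD1, BCAT1 and DDIT4 among them, while DDIT3 was called in 7 and TPM1, CHPF2 and TRMT1 in 4 of the 9. With every channel asked to be well above background, 9 of the 63 calls were not measured. The counts moved with the background correction and the normalization. With Feature Extraction's processed signals, and likewise with the deposited series values computed from them, 205 genes were higher, 90 lower and 7 stress response genes higher. A normexp offset of 10 gave 93 and 51, median centring 68 and 8, and clone channels set against each other without the Ctrl 40 lower. With 2-fold asked in each orientation 9 genes were lower, and with a mean of 1.5-fold in the same direction 242 were higher, 257 lower and 8 stress response genes higher. A single orientation gave 51 higher and 24 lower with the clone in Cy5 and 87 higher and 117 lower with the clone in Cy3, and 4 to 5 stress response genes. The sizes of single differences moved too, for DDIT3 from 1.58 to 3.28 and for TRIB3 from 2.29 to 3.23 with processed signals, for TMX4 from 2.88 to 4.27 with the clone channels, and for BCAT1 from 1.99 to 1.26 with the mean over its probes. TGFB1I1, not called, turned from 0.10 to -0.39, -0.28 and -0.03 with processed signals, clone channels and median centring. The medians of extracellular matrix and heat shock genes turned to 0.009 and 0.039 with median centring. Over the alternatives the median of the stress response list stayed between 0.19 and 0.67, of glycolysis and hypoxia between 0.34 and 0.77, of mitosis between 0.19 and 0.47, of p53 targets between -0.47 and -0.24, and of histones between -0.48 and -0.17. The causes were not tested. The arrays were paired by dye orientation, since each difference was taken within one, and no test was made because each clone is 1 RNA.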

Other observations

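Of the 91 probes that met the rule, 18 carry no gene name here and were not described. Several genes reached a large mean through 1 array alone and were not called: SEC61A2 differed by -6.32 with the clone in Cy5 and by 0.20 with the clone in Cy3, NFYC-AS1 by 0.08 and -4.78, and VAC14 by -0.21 and -4.47. No gene differed by at least 2-fold in opposite directions in the 2 orientations. Some genes were called between the Ctrl channels, where the RNA is the same, without a call between the clones as ratios to the Ctrl. ACTA2, smooth muscle actin, differed by -1.89 and -1.25 between the Ctrl channels and by -0.08 and -0.49 between the ratios of the clones. CRABP2, a retinoic acid binding protein, differed by 1.10 and 1.16 against -0.01 and 0.00. The cause was not tested.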
